A study of Mus musculus with 14 samples.

Results

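Amino acid transporters of 7 solute carrier families were followed in mouse long-term hematopoietic stem cells (LT-HSCs) before and after transplantation. The members are the protein-coding genes whose symbol begins with Slc1a, Slc3a, Slc6a, Slc7a, Slc36a, Slc38a or Slc43a. They number 64 among 21951 protein-coding genes and 55450 gene identifiers: 7 of Slc1a, 2 of Slc3a, 21 of Slc6a, 16 of Slc7a, 4 of Slc36a, 11 of Slc38a and 3 of Slc43a. The symbol also takes in Slc7a6os, a gene named for lying opposite Slc7a6 that is not a transporter, so 63 members are carriers or their heavy chains by name. RNA-seq was made from 14 libraries of 5000 sorted cells each from female C57BL/6 mice. The Selp high-derived and Selp low-derived groups, of 3 libraries each, held CD45.2+ cells from the LT-HSC gate, in which cells carry Sca-1, c-Kit and CD150 but lack CD48 and the lineage markers. They were taken 16 weeks after 1000 Selp high or Selp low LT-HSCs of old donors had been given to lethally irradiated recipients that were 10 to 16 weeks old at transplantation. The Selp high and Selp low groups, of 4 libraries each, held cells of the same gate without CD45.2. These cells were split by surface P-selectin (Selp) and sorted directly from mice older than 24 months. Same-numbered libraries of the 2 sorts were taken as the same mouse, which gives 4 mice. No gate on P-selectin was used after transplantation, so a derived group is named for its input, and every group goes back to old donor cells.

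Solute carriers move amino acids across the plasma membrane and the lysosomal membrane, by exchange of one amino acid for another or coupled to sodium or protons. Some SLC7 carriers are light chains that reach the cell surface only when joined to an SLC3 heavy chain. Imported leucine, arginine and glutamine feed protein synthesis and are sensed by the kinase complex mTORC1, while a shortage is read by the kinase GCN2 and the transcription factor ATF4, which raises transporter and amino acid synthesis genes. HSCs are known for low protein synthesis and for dependence on particular amino acids.

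The libraries hold 22374794 to 38216775 reads in genes. LT-HSC markers were present throughout, with Kit, the stem cell factor receptor used in the sort, at 1242 ± 207 CPM after and 1268 ± 229 CPM before transplantation (SD, n = 6 and 8). The 10 LT-HSC markers summed to 3163 to 4372 CPM after and 4467 to 5448 CPM before transplantation, and 6 of the 10 fell. CPM, counts scaled to library size, is used throughout. RNA of Selp itself was at 284 to 315 CPM in Selp high-derived and 243 to 289 CPM in Selp low-derived cells, and at 615 to 764 CPM in Selp high and 477 to 669 CPM in Selp low cells, so the ranges of the 2 sorts overlapped. In 3 libraries, Selp low-derived 2, Selp high 4 and Selp low 4, the 10 neutrophil markers summed to 12106, 19437 and 14235 CPM, against 276 to 5804 CPM in the other 11. The erythroid and monocyte marker sums were highest in the same 3. The Klrb1c gene of the natural killer cell list fell, at 26.2 ± 10.3 CPM after and 199 ± 63.1 CPM before transplantation, and Nkg7, a cytotoxic granule gene, rose, at 71.1 ± 19.6 CPM after and 21.98 ± 12.6 CPM before transplantation. In the other lists the leading genes were Cpa3 and Prss34 (mast cell and basophil, with Mcpt4 at or near 0 throughout), Cd79a and Cd79b (B cell), Cd68 and Ly6c2 (monocyte), Itga2b and Gp9 (platelet), Bst2 and Irf8 (dendritic cell), and Emcn and Pecam1 (endothelial), each with a mean of at most 207 CPM at either stage. Of the platelet list 2 genes rose and 2 fell, among them Gp9 (log2 fold change -0.53 ± 0.093, adjusted p = 0.000828), of the dendritic cell list 1 rose and 2 fell, among them Bst2 (log2 fold change -0.37 ± 0.12, adjusted p = 0.0268), and of the endothelial and stromal list 1 fell. The part of these cell types in the members' changes was not tested. Ngp and S100a8 led the neutrophil list, and Hbb-bs and Hba-a1 the erythroid list. Post-transplant libraries differ from pre-transplant ones in host, irradiation, the CD45.2 gate and collection, which cannot be told apart from the passage itself. In such bulk libraries fewer cells of a type and less RNA per cell cannot be told apart either.

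Of the 64 members 37 had enough reads to be tested and 27 did not. The untested ones were at a mean of at most 0.0978 CPM with at most 13 reads in a library, and 10 had no read in any library. They include the heavy chain Slc3a1 with its partners Slc7a9 and Slc7a13, the light chains Slc7a10, Slc7a12 and Slc7a15, Slc7a14, the glutamate transporters Slc1a2 and Slc1a7, Slc36a2 and Slc36a3, and Slc38a3, Slc38a4, Slc38a8 and Slc38a11. The other 12 belong to Slc6a and include Slc6a11 (GABA), Slc6a2 (noradrenaline), Slc6a4 (serotonin), Slc6a5 (glycine), Slc6a7 (proline), and Slc6a14, Slc6a16, Slc6a18, Slc6a19, Slc6a20b and Slc6a21.

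Levels were compared between members as CPM per kb of annotated exon, averaged over all 14 libraries. Slc3a2, the heavy chain CD98hc, was highest at 72.3 CPM per kb. Slc38a10, a poorly characterised SLC38 member, followed at 42.5 CPM per kb, and Slc1a5 (ASCT2), an exchanger of glutamine and other neutral amino acids, at 39.98 CPM per kb. Slc38a2 (SNAT2), a sodium-coupled carrier of small neutral amino acids, was at 26.8 CPM per kb. These 4 genes made up 50.0% of the summed level of all members. The next 6 were Slc7a4 at 25.4, Slc7a5 at 22.9, Slc43a1 at 17.7, Slc43a3 at 16.9, Slc7a6 at 15.2 and Slc6a6 at 13.2 CPM per kb, and the leading 10 together held 80.6% of the sum. The level reached 10 CPM per kb in 12 members and 1 CPM per kb in 23. The top 5 kept their order when the longest annotated transcript replaced the exon union, whereas Slc7a5 moved to rank 9 and Slc38a1 to rank 8. Exon bases shared with another gene count in the length, although ambiguous reads were left out. Slc7a4 has 554 such bases, so its level may be understated and its order against Slc38a2 is uncertain. By family, Slc38a held 26.1 ± 1.31% of the summed level after and 24.1 ± 2.69% before transplantation, and Slc7a 24.3 ± 1.00% after and 24.8 ± 1.33% before (SD, n = 6 and 8). Slc3a held 17.2 ± 1.60% after and 22.0 ± 1.75% before, while Slc1a held 12.99 ± 1.33% after and 10.8 ± 1.19% before.

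**Figure D1:**
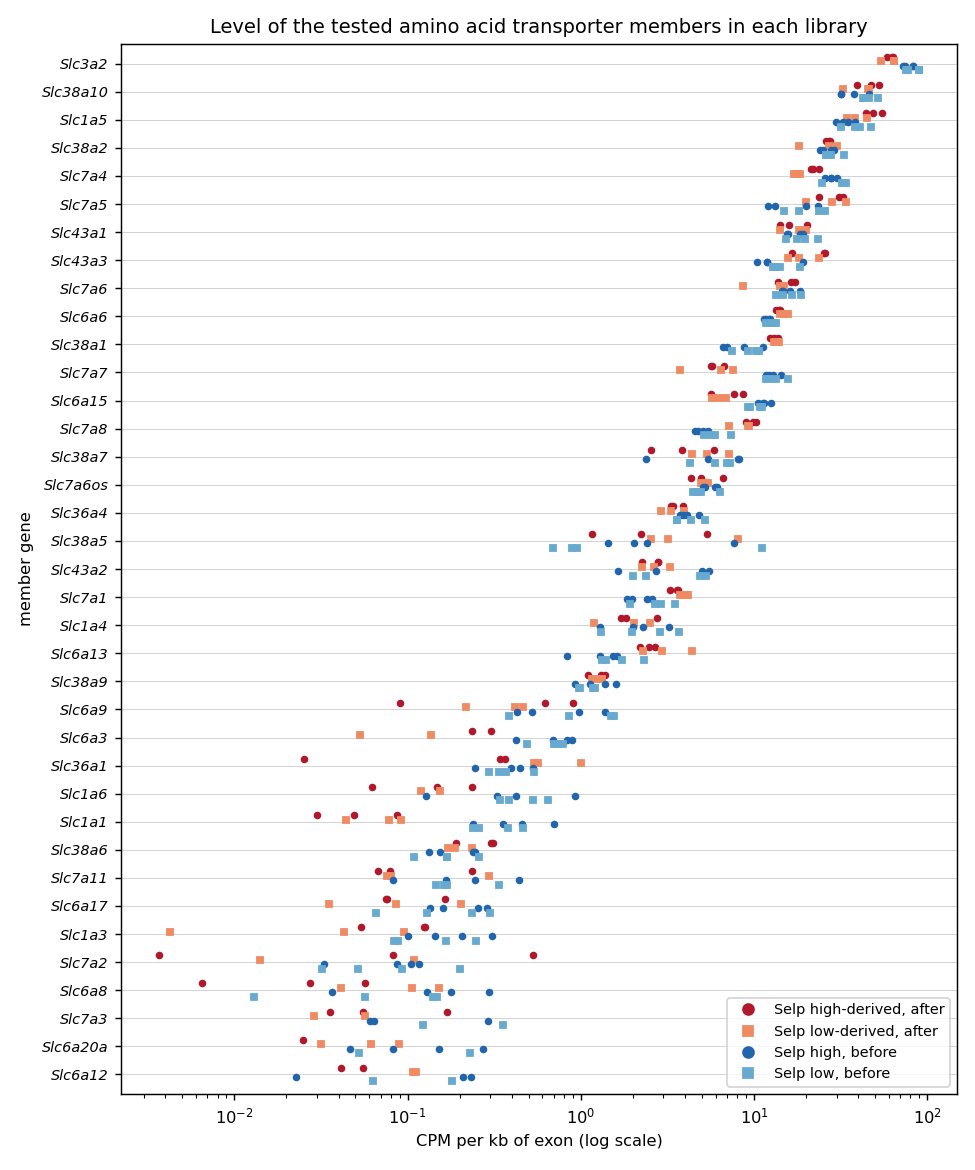
Level of each of the 37 tested members in CPM per kb of exon (log scale), with a point for each of the 14 libraries, coloured by group; libraries at 0 are not drawn. Slc3a2 stands at the top with a mean of 72.3 CPM per kb, and 14 members lie below 1 CPM per kb.

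Slc38a10, Slc38a2, Slc43a1 and Slc7a6, which are among the 10 highest, were not called in any comparison. Slc38a10 had 253, 339.7 and 305 CPM in Selp high-derived and 295, 209 and 290.2 CPM in Selp low-derived cells. Selp high cells had 241, 296, 205 and 205 CPM and Selp low cells had 275, 335, 278 and 297 CPM. All 4 groups overlapped. Slc38a2 had 229.8, 242 and 238 CPM in Selp high-derived and 238, 161 and 267 CPM in Selp low-derived cells. Untransplanted cells had Slc38a2 at 221, 256, 212 and 247 CPM in the Selp high and 241, 246, 229 and 292 CPM in the Selp low sort. Its groups overlapped as well, with Selp low-derived 2 the lowest library. Slc43a1 (LAT3), a facilitator of large neutral amino acids, had 80.2, 90.9 and 115 CPM in Selp high-derived and 114, 80.6 and 104 CPM in Selp low-derived cells. For Slc43a1 the pre-transplant values were 106, 88.6, 90.2 and 109.7 CPM in Selp high and 133, 87.5, 101 and 113 CPM in Selp low cells. No group stood apart. Slc7a6 (y+LAT2), a light chain that exchanges cationic for neutral amino acids, had 78.4, 74.8 and 62.8 CPM in Selp high-derived and 68.2, 39.7 and 64.8 CPM in Selp low-derived cells. Before transplantation Slc7a6 had 73.96, 67.1, 84.3 and 66.00 CPM in Selp high and 66.9, 76.1, 85.6 and 61.2 CPM in Selp low cells. Its lowest value was again in Selp low-derived 2, and the other 13 libraries lay between 61.2 and 85.6 CPM.

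After against before transplantation, 14 of the 37 tested members changed. By edgeR's quasi-likelihood test on all 14 libraries, at an adjusted p under 0.05 over 16878 genes, 7 rose and 7 fell. Over all genes 12.9% rose and 14.6% fell, 27.4% in all. The 7 that rose were Slc7a8, Slc38a1, Slc7a1, Slc6a13, Slc6a6, Slc43a3 and Slc7a5. The 7 that fell were Slc7a7, Slc1a1, Slc7a4, Slc6a15, Slc3a2, Slc6a3 and Slc1a6. The median log2 fold change was -0.22 over the tested members and -0.0087 over all genes. In 6 members (Slc7a7, Slc1a1, Slc7a4, Slc6a15, Slc3a2 and Slc6a3) every post-transplant library lay below every pre-transplant library, as did 5.47% of all genes, and in Slc38a1 every one lay above, as did 4.28% of all genes. The 8 pre-transplant libraries were taken to come from 4 mice. With the 2 libraries of a mouse summed the calls of Slc43a3, Slc6a6 and Slc7a5 were lost, leaving 4 that rose, while the 7 that fell were kept. Over all genes that fit called 1488 higher and 1955 lower, against 2175 and 2456 in the main fit.

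**Figure D2:**
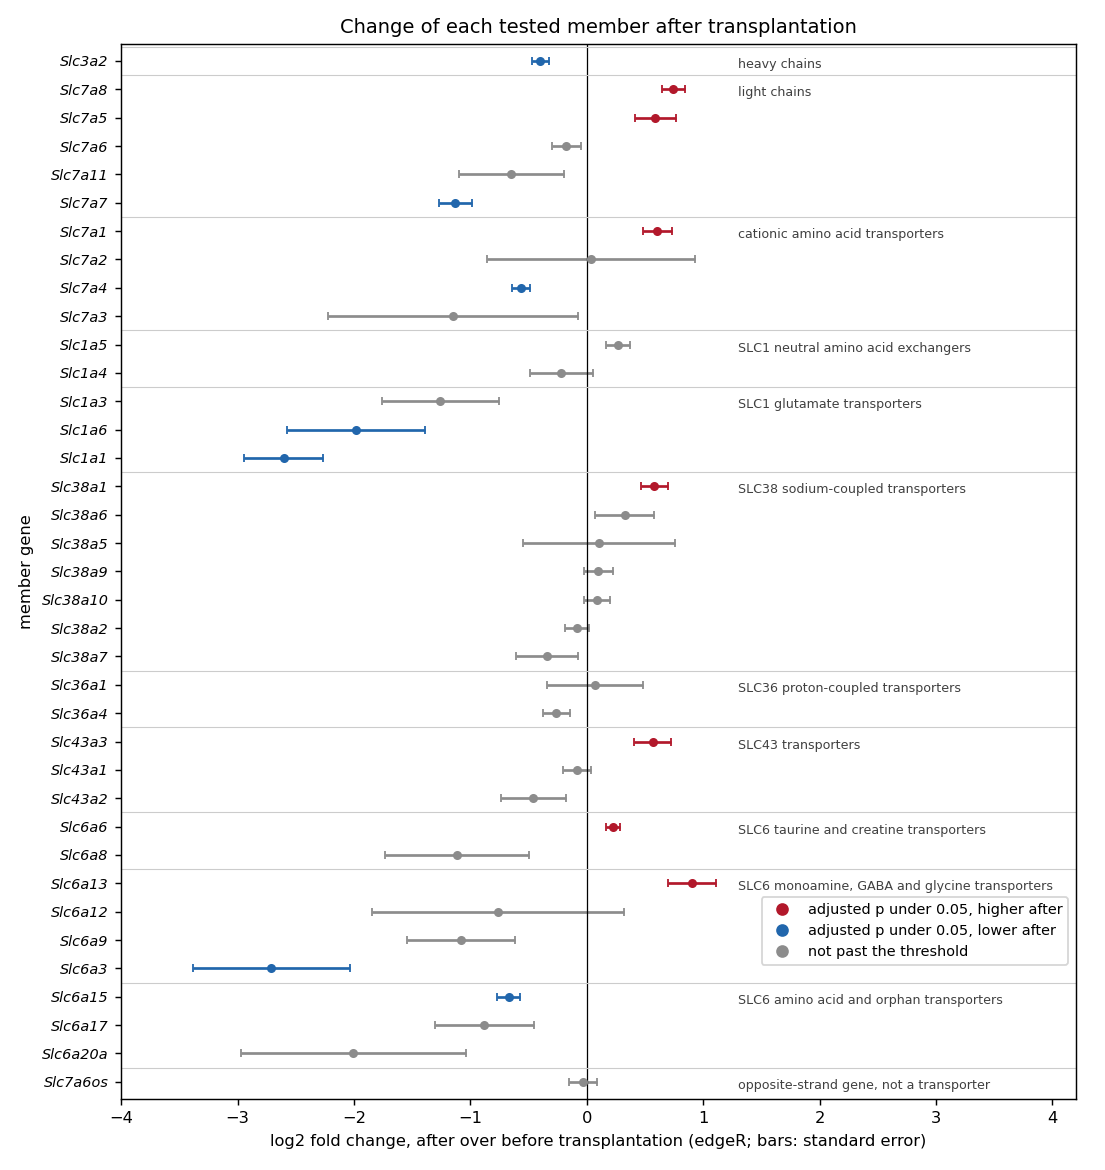
Log2 fold change of each tested member after over before transplantation, with its standard error, grouped by role; red marks members that rose, blue those that fell at an adjusted p under 0.05, and grey the others. The 14 coloured members are spread over heavy chain, light chains, cationic, glutamate, SLC38, SLC43 and SLC6 roles, and Slc6a3 and Slc1a1 have the largest falls among them, at -2.71 and -2.60.

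Genes of the heteromeric transporters moved in both directions. Slc3a2 fell, as did the light chain Slc7a7 (y+LAT1), which exports arginine and lysine in exchange for neutral amino acids and is mutated in human lysinuric protein intolerance. The light chains Slc7a8 (LAT2) and Slc7a5 (LAT1), exchangers of leucine and other neutral amino acids, rose. Slc3a2 (ENSMUSG00000010095.13, chr19:8706882-8723369, minus strand, GRCm38) had 206, 224 and 220.1 CPM in Selp high-derived and 227, 226 and 191 CPM in Selp low-derived cells. Selp high cells had 264, 257, 293 and 293 CPM and Selp low cells had 314, 274, 318 and 265 CPM. All 6 post-transplant values lay below all 8 pre-transplant ones (log2 fold change -0.40 ± 0.073, adjusted p = 0.00104). Slc7a7 (ENSMUSG00000000958.10, chr14:54369442-54417780, minus strand) had 18.9, 18.7 and 22.1 CPM in Selp high-derived and 12.3, 24.9 and 21.5 CPM in Selp low-derived cells. Untransplanted cells had Slc7a7 at 40.6, 42.5, 47.6 and 38.7 CPM in the Selp high and 39.1, 44.6, 52.2 and 40.97 CPM in the Selp low sort. Its groups did not overlap either, and the mean was 19.8 ± 4.30 CPM after and 43.3 ± 4.67 CPM before (SD, n = 6 and 8; log2 fold change -1.13 ± 0.14, adjusted p = 6.6e-05). Of its exons 232 bases are shared with the antisense gene Oxa1l, and reads in those bases cannot be assigned without strand.

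Slc7a8 (ENSMUSG00000022180.7, chr14:54722209-54781946, minus strand) had 45.1, 49.4 and 51.4 CPM in Selp high-derived and 46.2, 36.00 and 46.9 CPM in Selp low-derived cells. For Slc7a8 the pre-transplant values were 22.8, 25.4, 23.6 and 27.1 CPM in Selp high and 28.1, 36.8, 25.9 and 29.8 CPM in Selp low cells. A single Selp low-derived library, at 36.0 CPM, reached into the pre-transplant range, whose highest library was at 36.8 CPM (log2 fold change 0.74 ± 0.1, adjusted p = 0.000103). Slc7a5 (ENSMUSG00000040010.10, chr8:121881150-121907694, minus strand) had 88.3, 122 and 115 CPM in Selp high-derived and 126, 74.2 and 105 CPM in Selp low-derived cells. Before transplantation Slc7a5 had 44.9, 49.1, 73.7 and 86.8 CPM in Selp high and 55.02, 67.8, 87.7 and 94.6 CPM in Selp low cells. Its groups overlapped, and among the old mice the numbers 3 and 4 were higher than 1 and 2 in both sorts (log2 fold change 0.59 ± 0.18, adjusted p = 0.0231). The call was lost without Selp low-derived 1, Selp low-derived 3, Selp high-derived 2 or Selp high-derived 3. Slc7a11 (xCT), the cystine-glutamate exchanger, was far lower, at 0.943 to 4.12 CPM after and 1.15 to 6.10 CPM before transplantation (log2 fold change -0.65 ± 0.45, adjusted p = 0.31), and Slc7a6 did not pass the test (log2 fold change -0.17 ± 0.13, adjusted p = 0.327).

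Per kb of exon, the 5 light chains summed to 57.7 ± 7.54 CPM per kb after and 53.5 ± 6.66 CPM per kb before transplantation (SD, n = 6 and 8), and Slc3a2 was at 61.1 ± 4.07 CPM per kb after and 80.7 ± 6.63 CPM per kb before. The ratio of the light-chain sum to the heavy chain was 0.949 ± 0.139 after, with a range of 0.681 to 1.08, and 0.664 ± 0.0750 before, with a range of 0.528 to 0.767. Selp low-derived 2 was the lowest of the post-transplant libraries and lay within the pre-transplant range. Slc7a7 made up 10.7 ± 3.71% of the light-chain sum after and 24.6 ± 2.39% before. Slc7a8 made up 15.9 ± 0.682% after and 10.3 ± 1.72% before, and Slc7a5 48.7 ± 4.17% after and 34.8 ± 6.18% before. The ranges for Slc7a7 and Slc7a8 did not overlap between the stages, at 6.02 to 17.2% after and 21.1 to 27.9% before for Slc7a7. RNA ratios are no measure of assembled protein, and these ratios and shares are given without a test.

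**Figure D3:**
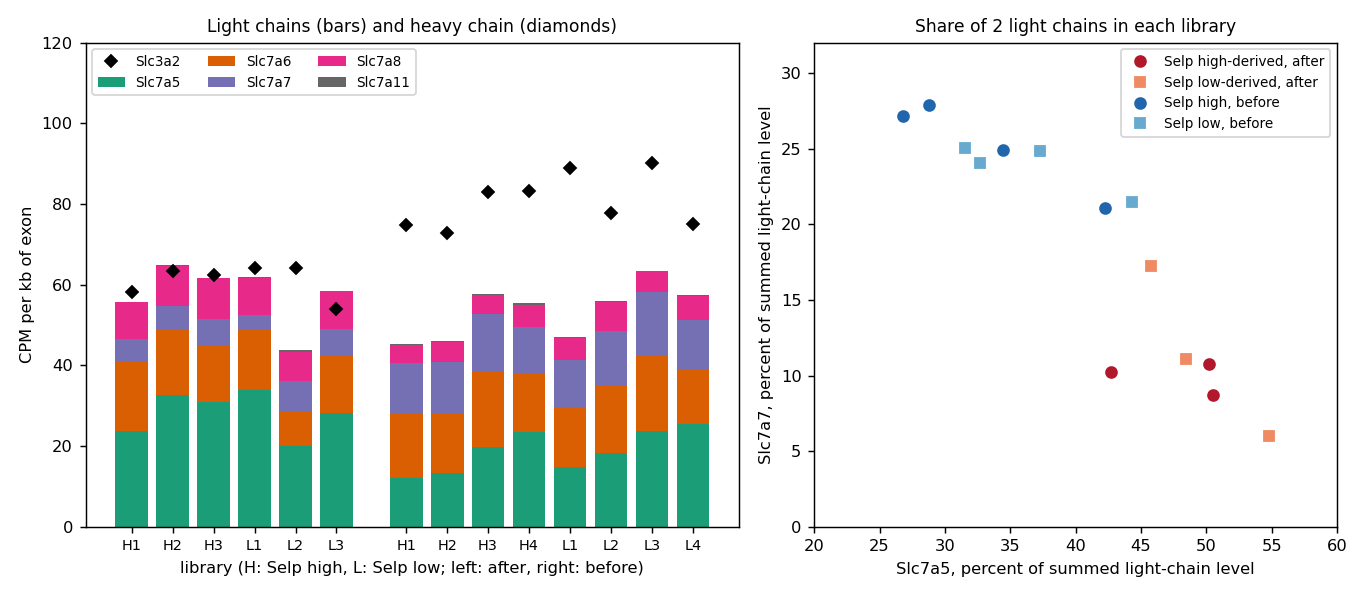
Left, light chains stacked as bars and the heavy chain Slc3a2 as diamonds, in CPM per kb of exon, for each library; right, the share of Slc7a7 against that of Slc7a5 in the summed light-chain level, with a point per library. The post-transplant libraries lie at 6.02 to 17.2% Slc7a7 and the pre-transplant ones at 21.1 to 27.9%.

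RefSeq promoters (GRCm38.p6) were read for 46 of the 64 members, at 67 start sites, and for 8 of the 14 that changed. Printed below, 5′ to 3′ on the gene's strand, are 250 bases, 220 before and 30 after the start. They are given for the heavy chain, the 2 light chains with a promoter that changed, the cationic carrier Slc7a1 and Slc7a11. These were picked by hand as examples with and without the C/EBP-ATF response element, through which ATF4 acts. Slc7a7 has 5 start sites in the table, of which 3 held no match to that element and 1 held a single one, and the window shown is the one with the most matches. Slc7a1 has 2, and the one shown holds an AP-1 match while the other holds none. Capitals mark matches to the response element, TGATGNAA, or to the AP-1 site TGANTCA, on either strand.
Slc3a2, chr19:8713868-8714117, minus strand: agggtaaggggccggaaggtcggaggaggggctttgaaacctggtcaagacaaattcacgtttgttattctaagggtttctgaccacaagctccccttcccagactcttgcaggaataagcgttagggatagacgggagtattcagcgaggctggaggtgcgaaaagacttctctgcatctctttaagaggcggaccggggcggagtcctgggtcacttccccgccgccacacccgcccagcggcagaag
Slc7a8, chr14:54781857-54782106, minus strand: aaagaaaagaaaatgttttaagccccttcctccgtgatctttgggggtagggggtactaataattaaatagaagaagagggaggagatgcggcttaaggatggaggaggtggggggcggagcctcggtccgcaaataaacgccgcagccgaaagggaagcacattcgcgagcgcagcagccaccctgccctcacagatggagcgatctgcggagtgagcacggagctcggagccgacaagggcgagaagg
Slc7a7, chr14:54417915-54418164, minus strand: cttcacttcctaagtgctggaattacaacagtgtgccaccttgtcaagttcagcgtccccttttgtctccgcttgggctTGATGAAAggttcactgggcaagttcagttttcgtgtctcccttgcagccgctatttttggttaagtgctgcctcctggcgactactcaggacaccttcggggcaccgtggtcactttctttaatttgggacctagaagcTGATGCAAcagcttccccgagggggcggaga
Slc7a1, chr5:148399875-148400124, minus strand: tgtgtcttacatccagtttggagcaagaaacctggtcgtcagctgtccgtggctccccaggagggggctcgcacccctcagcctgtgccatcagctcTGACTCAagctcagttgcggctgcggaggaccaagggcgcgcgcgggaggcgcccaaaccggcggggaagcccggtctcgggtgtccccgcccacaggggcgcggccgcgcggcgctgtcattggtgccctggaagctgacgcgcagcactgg
Slc7a11, chr3:50443584-50443833, minus strand: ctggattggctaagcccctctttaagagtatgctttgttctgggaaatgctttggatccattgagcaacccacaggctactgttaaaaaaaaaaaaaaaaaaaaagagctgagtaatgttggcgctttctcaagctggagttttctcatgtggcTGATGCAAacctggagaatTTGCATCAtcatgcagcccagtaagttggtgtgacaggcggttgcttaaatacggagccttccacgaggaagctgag
The Slc7a7 window held TGATGAAA at -141 and TGATGCAA at -1 from the start, Slc7a11 held TGATGCAA at -66 and, on the other strand, TTGCATCA at -47, and Slc7a1 held TGACTCA at -123. Slc1a4, a tested member that did not change and is not printed, held TTGCATCA at -4 on the other strand. In windows of 250 bases before to 50 after the start, the response element was in 3.97% of 32851 mouse promoters, in 2 of 15 promoters of members that changed (both of Slc7a7, whose windows overlap and share a match) and in 2 of 28 of the tested members that did not. AP-1 sites were in 7.81% of all promoters, in 1 of those 15 and in 5 of those 28. E-boxes (CACGTG) were in 7.15% of all promoters, in 2 of the 15 and in 4 of the 28. A match describes letters in the window and not a bound site.

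Among cationic amino acid transporters, 1 of 4 tested members rose and 1 fell. Slc7a1 (CAT1), the general importer of arginine and lysine (ENSMUSG00000041313.14, chr5:148327410-148399904, minus strand), had 37.8, 41.1 and 42.04 CPM in Selp high-derived and 42.8, 48.1 and 47.4 CPM in Selp low-derived cells. Selp high cells had 21.3, 29.7, 27.7 and 22.7 CPM and Selp low cells had 22.03, 30.7, 40.2 and 33.4 CPM. A single pre-transplant library, Selp low 3 at 40.2 CPM, lay above the lowest post-transplant library at 37.8 CPM (log2 fold change 0.61 ± 0.12, adjusted p = 0.00247). Slc7a4, a relative by sequence for which no such transport is established (ENSMUSG00000022756.17, chr16:17572018-17583214, minus strand), had 91.5, 98.2 and 88.6 CPM in Selp high-derived and 70.5, 76.99 and 73.5 CPM in Selp low-derived cells. Untransplanted cells had Slc7a4 at 116, 115, 126 and 107 CPM in the Selp high and 138, 141, 134 and 102 CPM in the Selp low sort. No post-transplant library reached the lowest pre-transplant value (log2 fold change -0.56 ± 0.081, adjusted p = 0.000178). Its exons share 554 bases with the antisense gene P2rx6. Slc7a2 (CAT2) and Slc7a3 (CAT3) were under 5 CPM in every library. Slc7a2 ran at 0 to 4.84 CPM after and 0.294 to 1.83 CPM before transplantation (log2 fold change 0.039 ± 0.89, adjusted p = 0.98), with a single high library, Selp high-derived 1. Slc7a3 ran at 0 to 0.640 CPM after and 0 to 1.35 CPM before transplantation (log2 fold change -1.15 ± 1.07, adjusted p = 0.46).

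In the SLC1 family the neutral exchanger Slc1a5 was abundant, at 39.98 CPM per kb, and Slc1a4 was at 2.19 CPM per kb. The glutamate transporters were low. Of 3 tested glutamate transporters 2 fell and 0 rose. Slc1a1 (EAAT3), which takes up glutamate and cysteine (ENSMUSG00000024935.11, chr19:28835049-28913960, plus strand), had 0.249, 0.715 and 0.404 CPM in Selp high-derived and 0.366, 0.758 and 0.644 CPM in Selp low-derived cells. For Slc1a1 the pre-transplant values were 2.94, 1.98, 5.75 and 3.80 CPM in Selp high and 2.12, 1.98, 3.13 and 3.81 CPM in Selp low cells. The post-transplant libraries were all under 1 CPM and the pre-transplant ones all above (log2 fold change -2.60 ± 0.34, adjusted p = 8.77e-05). Its exons share 2631 bases with the antisense gene 4430402I18Rik, where reads cannot be assigned, so its counts are uncertain. Slc1a6 (EAAT4), a glutamate transporter known from Purkinje cells (ENSMUSG00000005357.9, chr10:78780496-78814765, plus strand), had 0.320, 0.504 and 0.135 CPM in Selp high-derived and 0.330, 0 and 0.258 CPM in Selp low-derived cells. Before transplantation Slc1a6 had 1.99, 0.710, 0.275 and 0.911 CPM in Selp high and 1.38, 0.830, 0.733 and 1.14 CPM in Selp low cells. The groups overlapped (log2 fold change -1.99 ± 0.59, adjusted p = 0.0233), and the call was lost without Selp high 1 or without Selp high-derived 3. Slc1a3 (GLAST) ran at 0.0361 to 1.08 CPM after and 0.708 to 2.64 CPM before transplantation and did not pass the test (log2 fold change -1.26 ± 0.50, adjusted p = 0.0767).

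Of the neutral exchangers, Slc1a5 (ENSMUSG00000001918.17, chr7:16781340-16798274, plus strand) had 186, 228 and 204 CPM in Selp high-derived and 188, 144 and 160.4 CPM in Selp low-derived cells. Selp high cells had 124, 137, 159 and 145 CPM and Selp low cells had 132, 159.8, 197 and 171 CPM. Averaged over both inputs it missed the threshold (log2 fold change 0.27 ± 0.099, adjusted p = 0.058). In the Selp high input it rose (log2 fold change 0.54 ± 0.14, adjusted p = 0.0177), and in the Selp low input it was not called (log2 fold change -0.0052 ± 0.14, adjusted p = 0.988). The difference of these changes was 0.55 ± 0.20 on the log2 scale, with an adjusted p of 0.879 in edgeR, so it is not shown to differ between inputs. The Selp high call of Slc1a5 was lost without Selp high 1, Selp high-derived 2 or Selp high-derived 3. Slc1a4 (ASCT1), the exchanger of serine, alanine and cysteine, ran at 4.70 to 10.8 CPM after and 5.05 to 14.4 CPM before transplantation (log2 fold change -0.22 ± 0.27, adjusted p = 0.586), and its pre-transplant highs were both from mouse 3.

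In the SLC38 family, sodium-coupled carriers of glutamine and small neutral amino acids, 1 of 7 tested members rose and 0 fell. Slc38a1 (SNAT1), a glutamine importer (ENSMUSG00000023169.15, chr15:96571418-96642913, minus strand), had 214, 224 and 236 CPM in Selp high-derived and 239, 238 and 225 CPM in Selp low-derived cells. Untransplanted cells had Slc38a1 at 121, 194, 149.9 and 114 CPM in the Selp high and 129, 177, 159 and 184 CPM in the Selp low sort. The post-transplant libraries were tightly grouped and all above the pre-transplant ones (log2 fold change 0.58 ± 0.12, adjusted p = 0.00212). Slc38a9, the lysosomal arginine sensor of mTORC1, was at 20.9 ± 1.77 CPM after and 19.6 ± 3.75 CPM before transplantation (SD, n = 6 and 8; log2 fold change 0.099 ± 0.13, adjusted p = 0.602). Slc38a7, a lysosomal exporter of glutamine and asparagine, ran at 10.6 to 29.6 CPM after and 9.86 to 34.1 CPM before transplantation (log2 fold change -0.34 ± 0.26, adjusted p = 0.367). Slc38a6 ran at 1.33 to 2.42 CPM after and 0.843 to 2.01 CPM before transplantation (log2 fold change 0.33 ± 0.26, adjusted p = 0.371). Slc38a10 (log2 fold change 0.088 ± 0.11, adjusted p = 0.598) and Slc38a2 (log2 fold change -0.084 ± 0.10, adjusted p = 0.589) did not pass the test.

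Slc38a5 (SNAT5), a carrier of glutamine, histidine and glycine, differed widely between libraries. It had 5.01, 2.61 and 11.9 CPM in Selp high-derived and 5.67, 18.1 and 7.17 CPM in Selp low-derived cells. For Slc38a5 the pre-transplant values were 3.21, 5.38, 4.54 and 17.1 CPM in Selp high and 2.12, 2.01, 1.54 and 25.1 CPM in Selp low cells. The 3 highest values, 18.1, 17.1 and 25.1 CPM, came from Selp low-derived 2, Selp high 4 and Selp low 4, the libraries with the highest neutrophil and erythroid marker sums, against 1.54 to 11.9 CPM in the other 11. Erythroid markers summed to 1870, 2118 and 2591 CPM in those 3 and to 124 to 1128 CPM in the other 11. Slc7a11 was also highest there, at 4.12, 6.10 and 4.67 CPM, against 0.943 to 3.41 CPM elsewhere, and no other tested member lay above its other 11 libraries in all 3. How many of all genes share that pattern was not counted, so it is no result about these genes. The part of those cell types in these values was not tested. Over all 14 libraries Slc38a5 did not pass the test (log2 fold change 0.11 ± 0.65, adjusted p = 0.923). Without the 3 libraries it was at 6.48 ± 3.46 CPM after and 3.14 ± 1.54 CPM before (SD, n = 5 and 6) and was called higher (log2 fold change 1.17 ± 0.34, adjusted p = 0.0213). The same fit also called Slc1a5 higher (log2 fold change 0.32 ± 0.11, adjusted p = 0.0485) and Slc38a7 lower (-0.65 ± 0.20, adjusted p = 0.0298), and it kept all 14 calls. Over all genes that fit called 2616 higher and 2777 lower, against 2175 and 2456 in the main fit, so calls were gained generally.

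**Figure D4:**
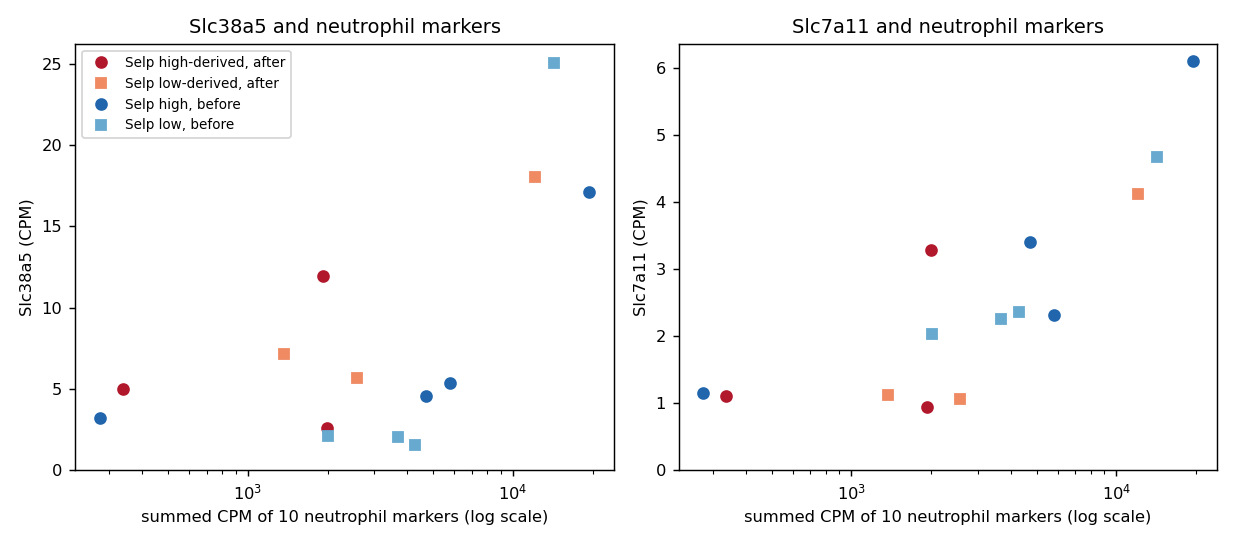
CPM of Slc38a5 (left) and Slc7a11 (right) against the summed CPM of 10 neutrophil markers on a log scale, with a point per library coloured by group. The 3 libraries with sums of 12106, 14235 and 19437 CPM hold the 3 highest values of both genes.

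Of the SLC43 carriers 1 of 3 rose. Slc43a3, known in humans as a purine nucleobase transporter and a member by name (ENSMUSG00000027074.14, chr2:84936579-84958509, plus strand), had 113, 73.8 and 115 CPM in Selp high-derived and 105, 80.9 and 69.7 CPM in Selp low-derived cells. Before transplantation Slc43a3 had 46.4, 86.1, 52.97 and 53.2 CPM in Selp high and 58.6, 82.5, 57.3 and 63.3 CPM in Selp low cells. The groups overlapped, with a pre-transplant high from mouse 2 in both sorts (log2 fold change 0.57 ± 0.16, adjusted p = 0.0165). Its call was lost without Selp low-derived 1, Selp high-derived 1 or Selp high-derived 3. Slc43a2 (LAT4), a facilitator of branched-chain and aromatic amino acids, had 22.5, 28.1 and 28.03 CPM in Selp high-derived and 26.6, 22.8 and 33.1 CPM in Selp low-derived cells. Selp high cells had 27.1, 55.1, 50.5 and 16.4 CPM and Selp low cells had 23.9, 49.1, 52.9 and 20.2 CPM. Numbers 2 and 3 were at 49.1 to 55.1 CPM in both sorts, and numbers 1 and 4 at 16.4 to 27.1 CPM. The spread before transplantation thus followed the library number (log2 fold change -0.46 ± 0.28, adjusted p = 0.244). Slc43a1 did not pass the test (log2 fold change -0.084 ± 0.12, adjusted p = 0.637). Of the proton-coupled SLC36 members, Slc36a4, a carrier of proline and tryptophan, ran at 19.1 to 25.7 CPM after and 23.4 to 33.9 CPM before transplantation (log2 fold change -0.26 ± 0.12, adjusted p = 0.108), and Slc36a1, which moves small neutral amino acids out of the lysosome, at 0.142 to 5.63 CPM after and 1.38 to 3.01 CPM before transplantation (log2 fold change 0.069 ± 0.41, adjusted p = 0.922).

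The SLC6 family, sodium- and chloride-coupled carriers known mostly from neurons and epithelia, had 9 tested members, of which 2 rose and 2 fell. Slc6a6, the taurine transporter (ENSMUSG00000030096.8, chr6:91684053-91759066, plus strand), had 113, 118 and 120.2 CPM in Selp high-derived and 119.8, 126 and 133 CPM in Selp low-derived cells. Untransplanted cells had Slc6a6 at 103, 96.3, 98.9 and 104 CPM in the Selp high and 109.6, 114, 98.8 and 106 CPM in the Selp low sort. The spread within each group was narrow, and the highest pre-transplant library, Selp low 2, lay just above the lowest post-transplant one (log2 fold change 0.22 ± 0.059, adjusted p = 0.0119), and the call was lost without a filter on low counts. Slc6a15 (B0AT2), a carrier of proline and branched-chain amino acids known from neurons (ENSMUSG00000019894.14, chr10:103367783-103419377, plus strand), had 59.2, 67.01 and 43.8 CPM in Selp high-derived and 44.3, 48.5 and 53.3 CPM in Selp low-derived cells. For Slc6a15 the pre-transplant values were 88.9, 86.8, 97.5 and 82.1 CPM in Selp high and 71.6, 73.5, 85.9 and 83.5 CPM in Selp low cells. The highest post-transplant library lay under the lowest pre-transplant one (log2 fold change -0.67 ± 0.098, adjusted p = 0.000204). Slc6a13, a GABA and taurine carrier known from liver and kidney (ENSMUSG00000030108.14, chr6:121300227-121337733, plus strand), had 6.40, 7.19 and 7.78 CPM in Selp high-derived and 8.57, 12.7 and 6.65 CPM in Selp low-derived cells. Before transplantation Slc6a13 had 2.41, 4.71, 3.75 and 4.48 CPM in Selp high and 5.03, 6.77, 3.86 and 4.05 CPM in Selp low cells. Selp low 2, at 6.77 CPM, was the only pre-transplant library within the post-transplant range (log2 fold change 0.90 ± 0.21, adjusted p = 0.0049).

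Slc6a3, the dopamine transporter (ENSMUSG00000021609.6, chr13:73536747-73578672, plus strand), had 0.818, 1.05 and 0 CPM in Selp high-derived and 0.183, 0 and 0.472 CPM in Selp low-derived cells. Selp high cells had 1.45, 2.39, 2.89 and 3.09 CPM and Selp low cells had 1.69, 2.52, 2.43 and 2.73 CPM. It had no read in 2 of 6 post-transplant libraries, and the highest of the others was under every pre-transplant value (log2 fold change -2.71 ± 0.67, adjusted p = 0.00842). At such levels the fitted fold change depends on the prior count of the fit. Slc6a9 (GlyT1), the glycine transporter of red cell precursors and brain, ran at 0.462 to 4.65 CPM after and 1.98 to 8.03 CPM before transplantation (log2 fold change -1.08 ± 0.47, adjusted p = 0.102). Slc6a8, the creatine transporter, ran at 0.0337 to 0.794 CPM after and 0.0675 to 1.54 CPM before transplantation (log2 fold change -1.12 ± 0.62, adjusted p = 0.198). Slc6a12, Slc6a17 and Slc6a20a were under 4 CPM in every library, with log2 fold changes of -0.76 ± 1.08, -0.88 ± 0.43 and -2.01 ± 0.97, and none passed the test. Slc7a6os was at 22.1 ± 3.30 CPM after and 22.6 ± 3.01 CPM before transplantation (SD, n = 6 and 8; log2 fold change -0.029 ± 0.12, adjusted p = 0.885).

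**Figure D5:**
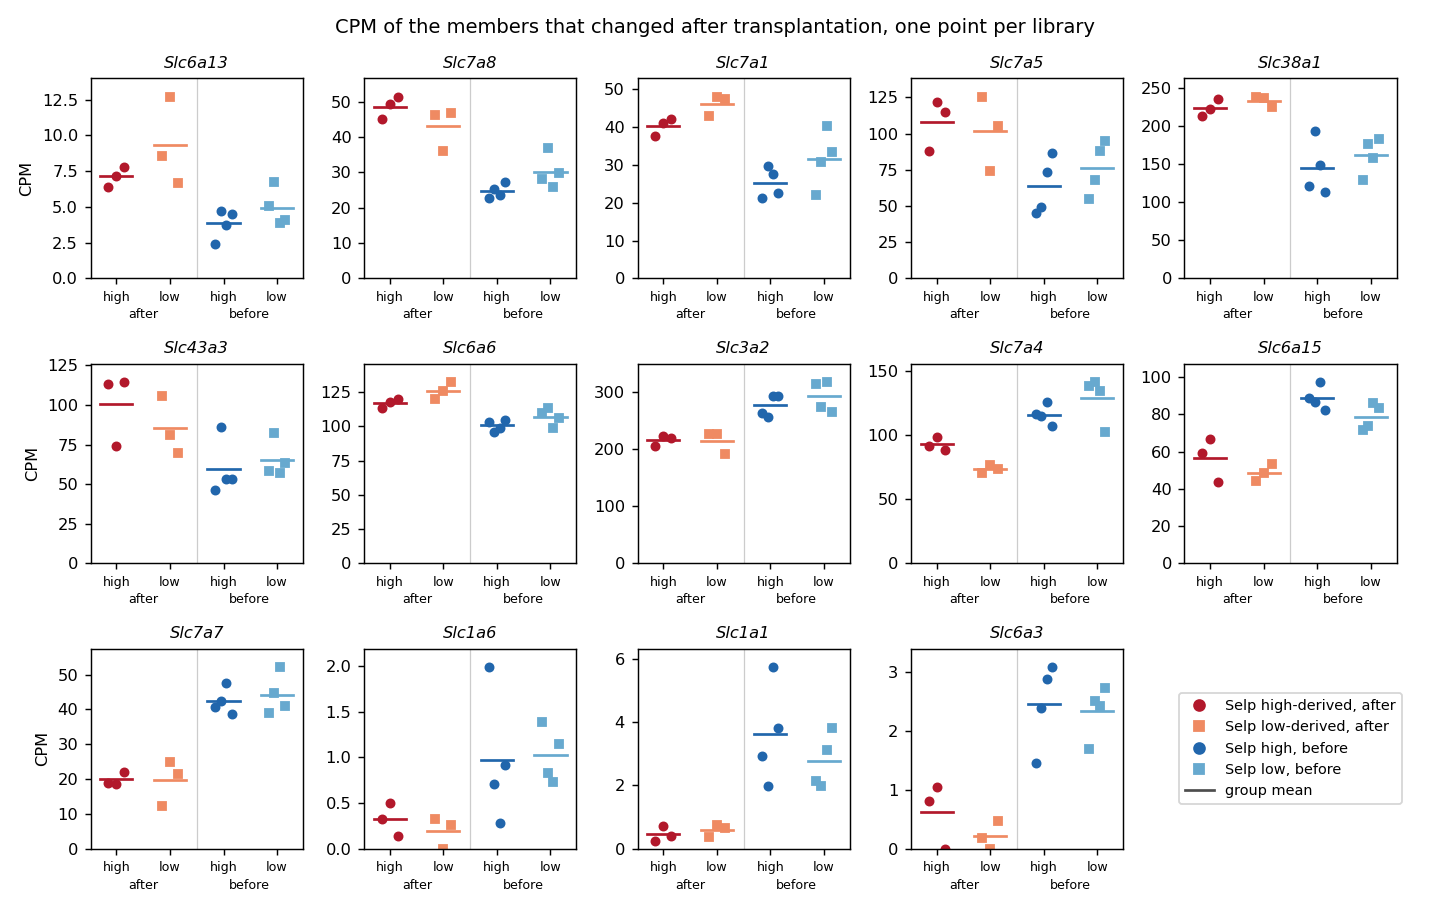
CPM of the 14 members that changed after transplantation, from the largest rise to the largest fall, with a point per library and a line at each group mean; every axis starts at 0. In Slc7a7, Slc1a1, Slc7a4, Slc6a15, Slc3a2 and Slc6a3 the 6 post-transplant points lie below all 8 pre-transplant points, and in Slc38a1 above them.

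Taken by input, 5 members (Slc7a8, Slc7a7, Slc1a1, Slc6a15 and Slc3a2) were called in both inputs, each in the same direction. The share of all genes called in both was not counted, so this count is no result about the members. Among other losses, Slc3a2 lost its Selp high call without Selp high-derived 1, 2 or 3 and its Selp low call without Selp low-derived 3. In the Selp low input, Slc7a8 lost its call without Selp low 1 or 3 or without Selp low-derived 1 or 3, and Slc1a1 without Selp low-derived 1. In the Selp high input 9 of 37 members were called after against before transplantation, 5 higher and 4 lower, beside 15.2% of all genes, 7.63% higher and 7.62% lower. The higher ones were Slc7a8, Slc38a1, Slc7a1, Slc43a3 and Slc1a5, and the lower ones Slc1a1, Slc7a7, Slc6a15 and Slc3a2. The count was 5 without Selp high 1, 5 without Selp high-derived 2 and 4 without Selp high-derived 3. Over all genes 2573 were called in the main fit, and 2028, 1765 and 1423 in these 3 fits. Slc1a5, Slc38a1 and Slc7a1 lost their call in each of these fits. In the Selp low input 7 members were called, 1 higher and 6 lower, beside 11.5% of all genes, 5.01% higher and 6.46% lower. Slc7a8 was higher and Slc7a4, Slc7a7, Slc6a15, Slc1a1, Slc3a2 and Slc6a3 were lower. The Slc6a3 call was lost without Selp low 1, 2 or 3, Selp high 3, or Selp low-derived 1 or 2. It was also lost without the 3 libraries highest in neutrophil markers. Without Selp low-derived 1 the count was 4 (803 genes), and DESeq2 called 12 (2832 genes), against 1936 genes in the main fit. Slc7a4 fell in the Selp low input (log2 fold change -0.81 ± 0.12, adjusted p = 0.00107) and was not called in the Selp high input (log2 fold change -0.32 ± 0.11, adjusted p = 0.0747). Slc7a8 rose in both, by 0.98 ± 0.14 in the Selp high and 0.51 ± 0.14 in the Selp low input on the log2 scale. The 2 comparisons share no library, but their pre-transplant libraries were taken to come from the same 4 mice.

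Selp high and Selp low cells did not differ in any member past the threshold. Before transplantation edgeR called 0 of 37 members and 0% of all genes, and 2 members were at an unadjusted p under 0.05, as were 863 of all genes. After transplantation it called 0 of 37 members and 0% of all genes, again with 2 members at an unadjusted p under 0.05, as were 765 of all genes. DESeq2 called 0 members in either comparison. The smallest p before transplantation belonged to Slc38a10, Slc7a8, Slc7a1 and Slc1a5, all with a lower mean in Selp high than in Selp low cells. Their values in each library, given above, overlapped between the 2 sorts. Each was lower in the Selp high than in the same-numbered Selp low library for all 4 numbers. These 4 were picked for their small p in this very comparison, which favours a shared direction, so it adds no support for a difference. The share of all genes with that pattern was not counted. After transplantation the smallest p were those of Slc7a4, Slc36a1, Slc1a5 and Slc6a8. Slc7a4 was at 88.6 to 98.2 CPM in Selp high-derived and 70.5 to 77.0 CPM in Selp low-derived cells, which did not overlap. Slc36a1 was at 0.142, 1.93 and 2.06 CPM in Selp high-derived and 3.002, 5.63 and 3.17 CPM in Selp low-derived cells, which did not overlap either. Both were picked for their small p here, which favours such a gap. The share of all genes without overlap between the derived groups was not counted, so these gaps are no result about the members. Slc6a8 was at 0.142, 0.294 and 0.0337 CPM in Selp high-derived and 0.549, 0.794 and 0.215 CPM in Selp low-derived cells, with 1 Selp low-derived library inside the Selp high-derived range. Slc1a5 overlapped between the derived groups by a single pair of libraries, at 186 CPM in Selp high-derived 1 and 188 CPM in Selp low-derived 1.

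The difference between the Selp differences of the 2 stages was called in 0 of 37 members and 0% of all genes by edgeR, with 4 members and 874 genes at an unadjusted p under 0.05, and in 0 members by DESeq2. The 4 members were Slc7a4 (log2 fold change 0.49 ± 0.16, adjusted p = 0.879), Slc1a5 (log2 fold change 0.55 ± 0.20, adjusted p = 0.879), Slc7a8 (log2 fold change 0.46 ± 0.20, adjusted p = 0.879) and Slc38a10 (log2 fold change 0.50 ± 0.22, adjusted p = 0.879). Each had a higher mean in Selp high-derived than Selp low-derived cells and a lower mean in Selp high than Selp low cells. They were picked for a small p of this difference, which favours such a crossing of means. Of these, Slc7a4 was the only one whose derived groups did not overlap. The shares of all genes with these patterns were not counted.

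Genes that respond to amino acid shortage split into a group that fell and a group that rose. Of 23 tested genes of the GCN2-ATF4 amino acid response 12 fell and 6 rose after transplantation, with a median log2 fold change of -0.41, beside 14.6% of all genes that fell, 12.9% that rose and an all-gene median of -0.0087. Atf4 itself fell (61.97 ± 14.7 CPM after and 111 ± 29.6 CPM before transplantation, SD, n = 6 and 8; log2 fold change -0.86 ± 0.17, adjusted p = 0.00202). Cebpb and Atf3, transcription factors that bind or follow ATF4, fell. Cebpb was at 68.7 ± 21.9 CPM after and 366 ± 110.4 CPM before (log2 fold change -2.39 ± 0.19, adjusted p = 2.5e-06) and Atf3 at 0.948 ± 1.53 CPM after and 137 ± 89.8 CPM before (log2 fold change -7.69 ± 0.79, adjusted p = 1.34e-05). Ppp1r15a, which returns eIF2 to its active state, was at 62.5 ± 33.3 CPM after and 469 ± 102 CPM before (log2 fold change -2.91 ± 0.26, adjusted p = 4.93e-06), and Nupr1, a stress-response nuclear protein, at 54.5 ± 8.76 CPM after and 176 ± 41.1 CPM before (log2 fold change -1.69 ± 0.16, adjusted p = 8.56e-06). The other 7 that fell were Ddit3, Asns, Trib3, Chac1, Ddit4, Stc2 and Eif4ebp1. The 6 that rose were the serine and folate enzymes Phgdh, Psat1, Psph, Shmt2 and Mthfd2, and Eif2ak4, which encodes GCN2. Psat1 was at 189.8 ± 41.6 CPM after and 98.2 ± 13.3 CPM before (log2 fold change 0.95 ± 0.14, adjusted p = 0.000175) and Phgdh at 275 ± 33.8 CPM after and 170.0 ± 39.3 CPM before (log2 fold change 0.70 ± 0.13, adjusted p = 0.00112). Atf3, Cebpb, Ddit4 and Ppp1r15a are also known to be induced by cell handling and acute stress, and the part of that in the difference was not tested.

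Of 36 tested genes of amino acid sensing by mTORC1 8 rose and 3 fell (median log2 fold change 0.046), beside 12.9% and 14.6% of all genes. Mtor, the kinase, was at 56.4 ± 12.7 CPM after and 29.97 ± 8.78 CPM before (log2 fold change 0.92 ± 0.20, adjusted p = 0.00315), and Rptor, the mTORC1 scaffold, at 49.8 ± 7.29 CPM after and 29.2 ± 7.30 CPM before (log2 fold change 0.77 ± 0.15, adjusted p = 0.00208). Depdc5, a subunit of the GATOR1 inhibitor of mTORC1, rose as well (28.2 ± 3.28 CPM after and 15.5 ± 3.56 CPM before; log2 fold change 0.86 ± 0.15, adjusted p = 0.000775), with Mios, Tsc2, Tbc1d7 and Fnip2. The leucine sensor relatives Sesn1 (269 ± 30.5 CPM after and 406 ± 90.4 CPM before; log2 fold change -0.58 ± 0.13, adjusted p = 0.00483) and Sesn3 fell, as did Rps6kb1, the S6 kinase. Seh1l, the other of the 2 most abundant genes of the list, was at 156 ± 24.8 CPM after and 140.5 ± 19.7 CPM before (log2 fold change 0.14 ± 0.11, adjusted p = 0.361).

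Of 22 aminoacyl-tRNA synthetases, which load amino acids on tRNA, 6 rose and 0 fell (median 0.17), beside 12.9% and 14.6% of all genes. Kars, for lysine, was at 217 ± 20.4 CPM after and 166 ± 13.8 CPM before (log2 fold change 0.38 ± 0.077, adjusted p = 0.00239) and Mars, for methionine, at 176 ± 31.7 CPM after and 125 ± 16.4 CPM before (log2 fold change 0.50 ± 0.11, adjusted p = 0.00326). Eprs, Aars, Gars and Hars rose too, and the most abundant, Vars (693 ± 72.5 CPM after and 587 ± 97.1 CPM before, log2 fold change 0.24 ± 0.10, adjusted p = 0.103) and Dars (361 ± 24.3 CPM after and 354 ± 37.6 CPM before, log2 fold change 0.033 ± 0.074, adjusted p = 0.775), did not pass the test. Eprs was at 351 ± 23.1 CPM after and 293 ± 24.4 CPM before (log2 fold change 0.26 ± 0.071, adjusted p = 0.0152) and Aars at 158 ± 33.5 CPM after and 107 ± 24.99 CPM before (log2 fold change 0.57 ± 0.17, adjusted p = 0.022). Of 28 tested genes of amino acid use 4 rose and 4 fell (median -0.0015), which is close to the 12.9% and 14.6% of all genes. Those that fell included Glul, which makes glutamine (149.5 ± 18.8 CPM after and 294 ± 69.6 CPM before; log2 fold change -0.98 ± 0.16, adjusted p = 0.000395), Ggt1, which cleaves extracellular glutathione (1.54 ± 0.562 CPM after and 6.06 ± 1.45 CPM before; log2 fold change -1.98 ± 0.23, adjusted p = 3.1e-05), and Gpt2. Shmt1, the cytosolic serine hydroxymethyltransferase (117 ± 29.3 CPM after and 62.6 ± 10.4 CPM before; log2 fold change 0.90 ± 0.14, adjusted p = 0.00039), Ass1, Got2 and Bckdk rose. The most abundant, Mat2a (525 ± 52.1 CPM after and 520.3 ± 79.5 CPM before, log2 fold change 0.011 ± 0.10, adjusted p = 0.952) and Glud1 (285 ± 29.98 CPM after and 297 ± 18.7 CPM before, log2 fold change -0.066 ± 0.067, adjusted p = 0.502), did not pass the test. Of 14 tested other amino acid carriers 3 rose and 2 fell (median -0.14), beside 12.9% and 14.6% of all genes. Slc25a12, the mitochondrial aspartate-glutamate carrier, was at 142 ± 13.4 CPM after and 104 ± 8.08 CPM before (log2 fold change 0.44 ± 0.075, adjusted p = 0.000591) and rose, as did Slc25a13 (log2 fold change 0.35 ± 0.12, adjusted p = 0.0442) and Mfsd12 (log2 fold change 0.30 ± 0.10, adjusted p = 0.0471). Pqlc2, the lysosomal exporter of cationic amino acids, was at 8.81 ± 1.83 CPM after and 15.5 ± 2.39 CPM before (log2 fold change -0.82 ± 0.14, adjusted p = 0.000539) and fell, as did Slc15a4 (log2 fold change -0.58 ± 0.16, adjusted p = 0.0137). No gene of the 5 lists was called between Selp high and Selp low cells, between the derived groups or in the difference between the stages.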

How the data were processed

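The deposited values are whole-number counts of reads per gene. Per the submitters' processing notes, the authors aligned with STAR 2.7.0d to GRCm38. The sources used here do not give the annotation release or counting options. The unstranded counts were used, since both strands had equal sums (ratio 0.989 to 0.999). Reads outside genes, ambiguous or mapped to several places were left out. All 55450 identifiers matched GENCODE M21.

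Counts were fitted with edgeR 4.0.16 in R 4.3.3 as 4 group means over 14 libraries, with TMM scaling, a minimum count of 10 in the expression filter and the quasi-likelihood test, Benjamini-Hochberg adjusted over 16878 genes. A gene is called, or said to have risen or fallen, at an adjusted p under 0.05. Values after ± are standard errors for fold changes and SD for levels. The biological coefficient of variation was 0.322. The fit was tested on simulated data of independent libraries, which does not cover libraries that share a mouse. The alternatives were RLE scaling, DESeq2 1.42.0, no filter, only the groups compared, the mouse as a block, the libraries of a mouse summed, each library left out, and the 3 libraries highest in neutrophil markers left out.

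Same-numbered pre-transplant libraries deviated together (r = 0.29 to 0.53, other pairs -0.40 to 0.05) and were taken as 1 mouse. The sample titles give only a replicate number, so a shared mouse cannot be told apart from a shared sort or batch. Same-numbered post-transplant ones did not (-0.05 to 0.02). Whether each post-transplant library had its own recipient is unknown, and p-values then cover only library spread. Within each group, all pairs of libraries differed by more than sampling noise.

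Values in every library are given for members called in any comparison and for the 10 highest per kb, and the 4 members with the smallest p are named between Selp groups. Each related list has up to 4 genes of smallest p and the 2 most abundant named with values, and further genes were named after their values were seen. A few genes that these rules name are not reported here. The members and lists were chosen with earlier results of these data known.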

Additional observations from a re-analysis of the deposited data

Results flagged for a closer look

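In 3 of 74 groups of 4 pre-transplant libraries 1 library stood apart by Dixon's criterion, which chance alone meets in about 1 group in 20. For Slc38a5, Selp high 4 was at 17.11 CPM, with its other 3 libraries at 3.21 to 5.38 CPM, and Selp low 4 was at 25.05 CPM, with the others at 1.54 to 2.12 CPM. For Slc7a11, Selp low 4 was at 4.672 CPM, with the others at 2.02 to 2.35 CPM. Both libraries carry number 4, taken as 1 mouse, and have the highest neutrophil marker sums, 19437 and 14235 CPM. The part of those cells in these values was not tested.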

How the results depend on the processing

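Of the 14 members called after against before transplantation, 10 kept their call in all 21 alternatives, and none of the 14 changed direction. With the libraries of each mouse summed 4 members were called higher, all of them among the 7. Over all genes 1488 were then called higher and 1955 lower, against 2175 and 2456 in the main fit. Leaving out a library in turn gave 5 to 8 members called higher (1680 to 2406 genes) and 6 to 9 lower (2008 to 2616 genes). In the Selp high input it gave 4 to 11 members (2573 genes in the main fit, and 1423 without Selp high-derived 3). In the Selp low input it gave 4 to 9 members. There the main fit called 1936 genes, against 803 without Selp low-derived 1, 1268 without Selp low 2 and 1184 without Selp low 3. DESeq2 called 12 members in the Selp low input, beside 2832 genes. With the mouse as a replicate block, 8 members were called higher (2881 genes) and 8 lower (2715 genes). By input the block gave 12 members in the Selp high (3427 genes) and 10 in the Selp low input (3086 genes). With the numbers of both stages, chosen after seeing the data, these counts were 8, 10, 13 and 9 members. All genes called were then 2704, 2884, 3462 and 3023. The block removes the spread between mice, so its p-values between stages are too small. Between Selp high and Selp low cells, between the derived groups and for the difference of these, 0 members were called under any alternative, leave-one-out and replicate block included. DESeq2 called 11, 25 and 11 genes there. Over all genes, edgeR called at most 2 in these 3 comparisons under any alternative, the block on the pre-transplant libraries alone included, which was also added after seeing the data. Depth limits the members under 1 CPM, for which a few reads set the values. Why the counts moved was not tested.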
